A study of Mus musculus with 11 samples.

Results

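Mgll, Scrg1, S100b, Gpr37 and Pik3r3 are 5 genes of 54686 entries in a gene expression table, taken because their RNA was among the most raised by siRNA against YAP and TAZ. They were selected on measured values, the mean log2(FPKM + 1) differences between YAP/TAZ siRNA and control siRNA, without heat and after heat, where FPKM are fragments per gene, scaled for transcript length and for the mapped fragments of the library. Those differences are therefore given below as a description, with no test. A filter on low values (1 FPKM or more, 2 libraries or more) kept 12626 genes, including 5 of the 5 genes. Mgll, Scrg1 and S100b ranked 1, 2 and 3 by the smaller of their 2 differences. Gpr37 (rank 6) and Pik3r3 (rank 7) followed 2 genes that are not in the set. The smaller difference was 1.92 for Pik3r3, just inside, and 1.88 for the next gene, just outside.

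The cells were B16-OVA, a melanoma line from the C57BL/6J mouse that carries ovalbumin as a model antigen, and the series asked how YAP and TAZ affect the RNA response to heat. All groups had received siRNA. The groups were control siRNA without heat (3 libraries), control siRNA with heat (2 libraries, replicates 1 and 3), pooled siRNAs that target both YAP and TAZ, without heat (3 libraries), and the same pool with heat (3 libraries). Heated cells had spent 1 h at 45 °C, beginning 48 h after transfection, and then 6 h at 37 °C. Replicate 2 of the heated control cells was not analysed here. The labels do not say whether replicates were separate cultures, and p-values therefore describe the scatter among libraries, possibly a technical one.

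YAP (gene Yap1) and TAZ (gene Wwtr1) are the co-activators at the end of the Hippo pathway. They have no DNA-binding domain, enter the nucleus when the Hippo kinases are inactive, and switch on genes such as Ccn1 and Ccn2 through TEAD factors; at some promoters they are also known to repress. Melanocytes and Schwann cells both descend from the neural crest, and melanoma cells can express genes of either lineage under the transcription factor SOX10. Mgll encodes monoacylglycerol lipase, Scrg1 a small secreted protein first found as raised in scrapie, S100b a calcium-binding protein of glia and melanocytes, Gpr37 a G protein-coupled receptor abundant in oligodendrocytes, and Pik3r3 a regulatory subunit of phosphoinositide 3-kinase.

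The depth read from the smallest steps between low values was 30.5 to 43.9 M fragments per library. Libraries of 1 group correlated across genes at r = 0.977 to 0.984 on the log2 scale, those of different groups at 0.900 to 0.958, and 0 of 55 library pairs were identical. The melanocyte label was borne out: 19 of 20 pigmentation genes passed the filter on low values, and their summed level was 7463 to 9844 FPKM. Endothelial and keratinocyte markers had 0 of 7 genes each past the filter, lymphocyte markers 1 of 9, fibroblast markers 2 of 9 and macrophage markers 2 of 10. Some of these sums moved with heat in control cells. From unheated to heated control libraries the macrophage sum went from between 2.35 and 2.64 to between 6.33 and 6.77 FPKM, the lymphocyte sum from at most 0.317 to at most 1.92 FPKM and the endothelial sum from at most 0.293 to at most 1.52 FPKM. Genes above 0 numbered 23173 and 23242 in heated control libraries, 20000 to 20365 in unheated ones, 20632 to 20914 under YAP/TAZ siRNA without heat and 21534 to 21662 with it. Their part in the heat changes and in the siRNA differences after heat was not tested.

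Both targeted genes were lower under YAP/TAZ siRNA, with no overlap between groups. Yap1 was 7.26, 5.79 and 15.6 FPKM in unheated control libraries, 10.9 and 5.96 FPKM in heated control libraries, 2.75, 3.02 and 2.54 FPKM in unheated YAP/TAZ siRNA libraries and 2.61, 2.26 and 2.29 FPKM in heated ones. Wwtr1 was 5.37, 6.28 and 8.20 FPKM, then 5.50 and 8.47 FPKM, then 1.83, 1.83 and 1.65 FPKM, then 1.72, 1.40 and 1.55 FPKM in the same order of groups. By limma, with p adjusted over all genes by Benjamini-Hochberg as for every adjusted p below, the log2 difference (± standard error) was -1.38 ± 0.30 without heat (adjusted p = 0.00445) and -1.43 ± 0.34 after heat (adjusted p = 0.00593) for Yap1. It was -1.45 ± 0.16 (adjusted p = 6.09e-05) and -1.62 ± 0.17 (adjusted p = 6.15e-05) for Wwtr1. Of all genes tested, 21.9% were lower by the same test without heat and 17.9% after heat, and in 26.3% and 24.6% the YAP/TAZ siRNA libraries all lay below the control libraries. Without replicate 1 of the heated controls, the Yap1 difference after heat was -1.04 and missed the threshold of 0.05 (adjusted p = 0.0696). Here and wherever 1 of the 2 heated control libraries is left out below, the lone library is assumed to vary like those of the other groups. Over 20 alternatives that adjusted p ran from 5.2e-04 to 0.0696.

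The 5 genes lie at 5 places on 4 chromosomes of the mouse genome (build GRCm38, GENCODE M21). Mgll (ENSMUSG00000033174) is at chromosome 6, 88724412 to 88828360, plus strand, and Gpr37 (ENSMUSG00000039904) is on the same chromosome at 25665878 to 25690729, minus strand. Scrg1 (ENSMUSG00000031610) is at chromosome 8, 57455923 to 57477585, S100b (ENSMUSG00000033208) at chromosome 10, 76253853 to 76261159, and Pik3r3 (ENSMUSG00000028698) at chromosome 4, 116221618 to 116303056, all on the plus strand. All are protein-coding. Pik3r3 shares exons with the predicted gene Gm49337 on the same strand, which was at 0 FPKM in every library, so the division of reads between them is uncertain. Exons of Mgll overlap the antisense gene Gm26588, which reached at most 0.0558 FPKM, and the 3′ part of S100b lies inside the span of Dip2a on the other strand (at most 8.84 FPKM) without sharing exons. Whether counting used the strand is not given in the sources used here.

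Because the 5 genes were all chosen as higher under the siRNA, the bases before their RefSeq transcription starts (GRCm38.p6) were read for the letters of 6 known binding motifs. Windows of 250 bases before to 50 after a start were found for 4 of the 5 genes, 7 windows in all. The 250 bases before the start are shown for 3 windows, on the plus strand, 5′ to 3′, with motif matches in capitals. That of Mgll was taken because it holds matches, and those of S100b and Pik3r3 because these windows differ in CpG content. The Mgll window is chr6:88724162-88724411, the S100b window chr10:76253586-76253835 and the first of 3 Pik3r3 windows chr4:116221166-116221415.
Mgll: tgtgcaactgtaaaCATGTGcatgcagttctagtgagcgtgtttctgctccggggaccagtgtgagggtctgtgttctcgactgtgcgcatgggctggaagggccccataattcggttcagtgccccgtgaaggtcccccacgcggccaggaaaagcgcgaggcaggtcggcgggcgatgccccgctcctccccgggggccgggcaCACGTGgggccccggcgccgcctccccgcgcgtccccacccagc
S100b: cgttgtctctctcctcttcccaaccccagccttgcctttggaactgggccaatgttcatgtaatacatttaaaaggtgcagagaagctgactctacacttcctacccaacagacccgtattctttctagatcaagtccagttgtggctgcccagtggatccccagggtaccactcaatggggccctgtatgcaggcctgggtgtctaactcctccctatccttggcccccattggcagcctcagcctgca
Pik3r3: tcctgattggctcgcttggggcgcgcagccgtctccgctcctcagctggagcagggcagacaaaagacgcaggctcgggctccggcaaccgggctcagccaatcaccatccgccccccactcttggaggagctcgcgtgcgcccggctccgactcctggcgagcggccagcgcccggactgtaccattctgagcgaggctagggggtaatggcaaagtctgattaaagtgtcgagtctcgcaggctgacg
The TEAD motif GGAATG was in 0 of the 7 windows, and 14.7% of 32851 windows of the same length held it on either strand. The heat shock element GAANNTTC (7.86% of windows) and the AP-1 motif TGANTCA (7.81%) were in 0 of 7 as well. Mgll held both E-boxes known to be read by the melanocyte factor MITF. CACGTG (7.15% of windows) began at base -44 and CATGTG (14.2%) at base -236, where -1 is the base before the start. The SOX motif ACAAAG (18.7%) occurred once, on the minus strand at base 45 of the third Pik3r3 window, which is not shown. The windows differ in base composition, also between starts of the same gene. Those shown in part held 70.0% G and C with 32 CpG for Mgll, 63.0% with 25 CpG for Pik3r3 and 53.7% with 3 CpG for S100b. Windows 2 and 3 of Pik3r3 held 58.0% with 14 CpG and 47.3% with 6 CpG. Window 2 of Mgll held 72.3% with 42 CpG, and the Gpr37 window 62.7% with 21 CpG. The medians of all windows were 52.7% and 7 CpG. How far Pik3r3 differs from S100b thus depends on the Pik3r3 start chosen. These letters describe the windows and say nothing of what binds there.

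Mgll had the highest rank of the 5 genes and the lowest level in control cells. Monoacylglycerol lipase splits monoacylglycerols, among them the endocannabinoid arachidonoylglycerol, into glycerol and free fatty acids. Its level was 2.01, 2.82 and 2.84 FPKM in unheated control libraries and 1.53 and 1.31 FPKM in heated ones, against 21.8, 21.4 and 23.1 FPKM in unheated YAP/TAZ siRNA libraries and 15.5, 14.5 and 15.3 FPKM in heated ones. The 4 groups did not overlap at any step of their order, and the lowest value rested on about 192 fragments. Group means were 2.56 ± 0.471 (SD, n = 3), 1.42 ± 0.152 (SD, n = 2), 22.1 ± 0.893 (SD, n = 3) and 15.1 ± 0.529 (SD, n = 3) FPKM, so the ratio of means under the siRNA was 8.65 without heat and 10.6 after heat. Among all genes tested, Mgll moved from between the 22.2 and 29.5 percentile of its unheated control libraries to between the 81.6 and 82.7 percentile. The log2 difference was 2.71 ± 0.09 without heat and 2.73 ± 0.10 after heat. In bulk RNA, more cells with a transcript and more transcript per cell cannot be told apart, for this gene and those that follow.

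Scrg1 ranked next. The protein, stimulator of chondrogenesis, is secreted and is known from cartilage differentiation and from prion-infected brain. It stood at 4.49, 4.59 and 5.98 FPKM in unheated control libraries and at 5.96 and 7.38 FPKM in heated ones, which overlap. Under YAP/TAZ siRNA it stood at 37.5, 35.5 and 39.9 FPKM in unheated libraries and at 48.4, 45.7 and 53.8 FPKM after heat, with no overlap. Group means were 5.02 ± 0.834 (SD, n = 3), 6.67 ± 1.01 (SD, n = 2), 37.6 ± 2.20 (SD, n = 3) and 49.3 ± 4.12 (SD, n = 3) FPKM. The ratio of means was 7.49 without heat and 7.40 after heat, and the log2 differences were 2.69 ± 0.11 and 2.72 ± 0.12. Heated YAP/TAZ siRNA libraries held the highest Scrg1 values of the series, whereas the other genes except S100b peaked in the unheated ones.

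S100b was already abundant in control cells. It is an EF-hand protein that acts as a dimer, marks astrocytes, Schwann cells and melanocytes, and is used as a serum marker of melanoma. Its level was 20.6, 19.6 and 22.2 FPKM in unheated control libraries, 23.5 and 23.0 FPKM in heated ones, 92.7, 97.6 and 112 FPKM in unheated YAP/TAZ siRNA libraries and 105, 97.9 and 108 FPKM in heated ones. The last 2 groups overlapped and the others did not. Group means were 20.8 ± 1.31 (SD, n = 3), 23.2 ± 0.318 (SD, n = 2), 101 ± 9.77 (SD, n = 3) and 104 ± 5.10 (SD, n = 3) FPKM, a ratio of 4.84 without heat and 4.46 after heat. The log2 differences were 2.22 ± 0.07 and 2.11 ± 0.08.

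Gpr37 stood at a separate level in each of the 4 groups. The receptor, known as a substrate of the ubiquitin ligase parkin and proposed to bind prosaposin, is a gene of myelinating glia. It was 8.42, 7.63 and 7.86 FPKM in unheated control libraries and 2.18 and 2.42 FPKM in heated ones. Under YAP/TAZ siRNA it was 34.7, 37.0 and 34.8 FPKM in unheated libraries and 17.9, 18.2 and 17.2 FPKM after heat. No neighbouring groups overlapped. Means were 7.97 ± 0.408 (SD, n = 3), 2.30 ± 0.166 (SD, n = 2), 35.5 ± 1.32 (SD, n = 3) and 17.8 ± 0.525 (SD, n = 3) FPKM. The ratio of means under the siRNA was 4.46 without heat and 7.72 after heat, and the log2 differences were 2.03 ± 0.05 and 2.51 ± 0.06.

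Pik3r3 was the most abundant of the 5 in unheated YAP/TAZ siRNA libraries. Its product, p55-gamma, binds phosphorylated receptors and adaptor proteins and holds the catalytic subunit of class IA phosphoinositide 3-kinase. It was 30.0, 31.3 and 27.9 FPKM in unheated control libraries, 23.5 and 26.4 FPKM in heated ones, 148, 156 and 141 FPKM in unheated YAP/TAZ siRNA libraries and 91.6, 109 and 90.5 FPKM in heated ones. Neighbouring groups did not overlap. Means were 29.8 ± 1.71 (SD, n = 3), 24.9 ± 2.05 (SD, n = 2), 148 ± 7.61 (SD, n = 3) and 97.0 ± 10.4 (SD, n = 3) FPKM, a ratio of 4.99 without heat and 3.89 after heat. The log2 differences were 2.28 ± 0.08 and 1.92 ± 0.09.

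In all 5 genes every YAP/TAZ siRNA library lay above every control library at the same heat state. That separation follows from how the genes were chosen, and 32.0% of all genes tested showed it without heat and 46.0% after heat. By the test, 27.1% of all genes were higher without heat and 36.3% after heat, and the median log2 difference of all genes was 0.02 and 0.13. The split of higher against lower calls after heat was 4589 and 2266, and it was 3365 and 3153 with median-of-ratios scaling and 3707 and 2941 with quantile normalization.

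**Figure D1:**
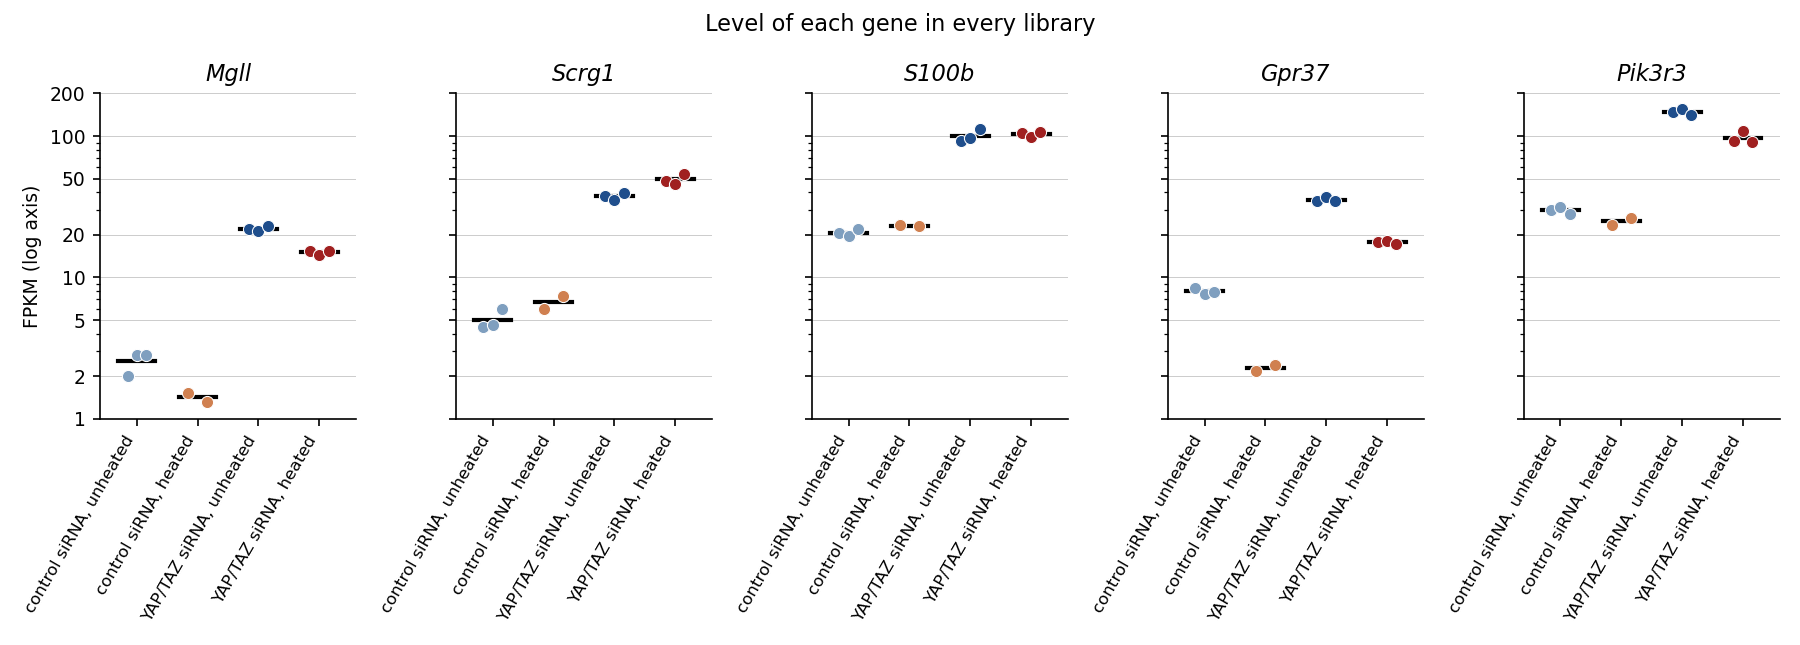
FPKM of Mgll, Scrg1, S100b, Gpr37 and Pik3r3 in each of 11 libraries on a log axis; points are libraries, bars are group means. YAP/TAZ siRNA libraries lie above control libraries in each panel, and Gpr37 shows the widest gap between unheated (7.63 to 8.42 FPKM) and heated (2.18 and 2.42 FPKM) control libraries.

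**Figure D2:**
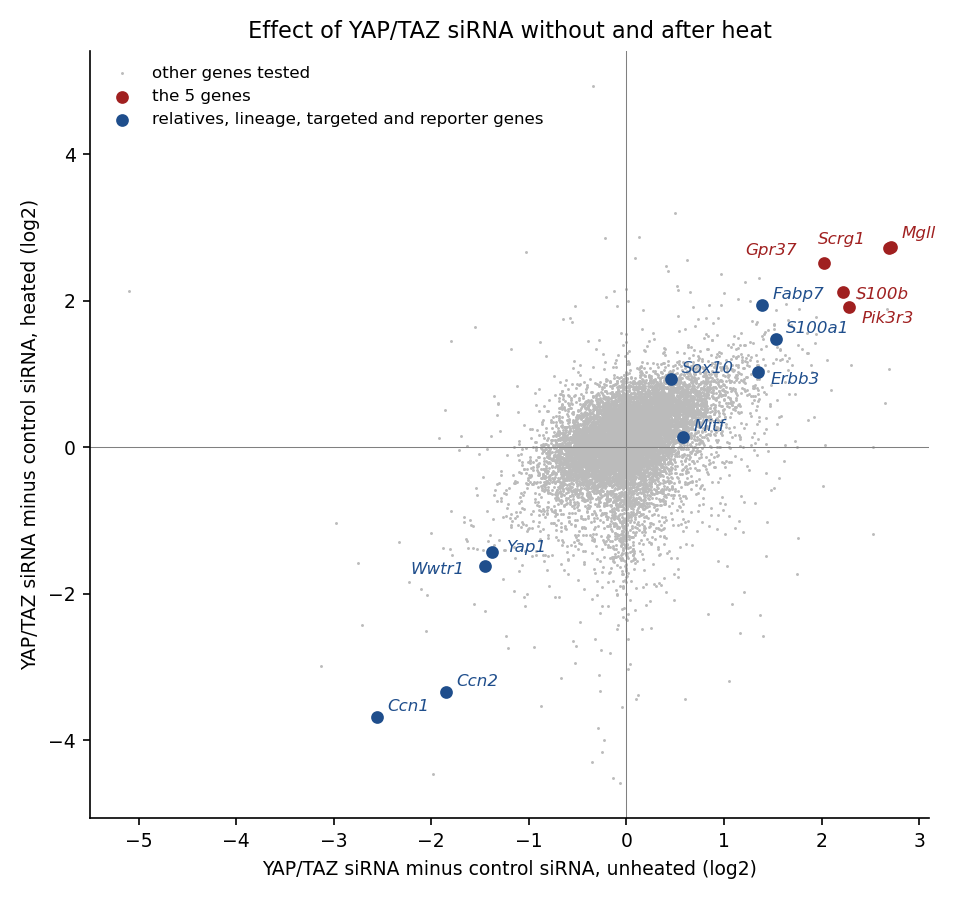
Log2 difference between YAP/TAZ and control siRNA without heat (horizontal) and after heat (vertical), on the log2(FPKM + 1) scale, for 12626 genes. The 5 genes (red) lie at the upper right, from 2.03 to 2.71 without heat and from 1.92 to 2.73 after heat, and Ccn1 and Ccn2 at the lower left.

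The effect of heat on the 5 genes was not used to choose them and was tested, although the heat comparisons share their libraries with the comparisons that did choose them. Mgll, Gpr37 and Pik3r3 fell with heat under both siRNAs, Scrg1 rose under both, and S100b passed the test under neither. Of all genes tested, 36.9% fell and 12.4% rose with heat under control siRNA, and 31.7% fell and 18.6% rose under YAP/TAZ siRNA, and with 5 genes the count of 3 falls is not read as different from those shares. In 50.6% and 36.0% of genes the heated libraries all lay below the unheated ones, which held for the same 3 genes, and in 19.2% and 21.3% they all lay above, which held for S100b with control siRNA and for Scrg1 with YAP/TAZ siRNA.

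Gpr37 had the largest heat response of the 5. Under control siRNA the mean fell to 0.289 of the unheated level, a log2 change of -1.44 ± 0.06 (adjusted p = 2.7e-07), and under YAP/TAZ siRNA the log2 change was -0.96 ± 0.05 (adjusted p = 3.7e-06). Mgll fell by a similar log2 amount under both siRNAs, -0.55 ± 0.10 (adjusted p = 0.00186) and -0.52 ± 0.09 (adjusted p = 0.00156). Pik3r3 fell under YAP/TAZ siRNA by a log2 change of -0.61 ± 0.08 (adjusted p = 3.8e-04). Its change under control siRNA was -0.25 ± 0.09, close to the threshold (adjusted p = 0.0482).

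Scrg1 rose with heat by a log2 change of 0.35 ± 0.12 under control siRNA (adjusted p = 0.0387) and 0.38 ± 0.11 under YAP/TAZ siRNA (adjusted p = 0.0172). S100b changed by 0.16 ± 0.08 (adjusted p = 0.149) and 0.05 ± 0.07 (adjusted p = 0.631), on the log2 scale. The 3 calls near the threshold depended on single libraries. The Scrg1 call under control siRNA was lost without unheated control replicate 1 or 2, heated control replicate 3, unheated YAP/TAZ siRNA replicate 1 or heated YAP/TAZ siRNA replicate 1, with a change of 0.22 to 0.49 over all 11 omissions. The Scrg1 call under YAP/TAZ siRNA was lost without unheated replicate 2 or heated replicate 3 of that siRNA (0.32 to 0.43 over all omissions). The Pik3r3 call under control siRNA was lost in 8 of 11 omissions, all but those of unheated control replicate 3 and heated YAP/TAZ siRNA replicates 2 and 3 (-0.33 to -0.17). S100b under YAP/TAZ siRNA stood at -0.01 without unheated replicate 1 of that siRNA.

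The whole distribution moved with heat as well. The median log2 change of all genes was -0.16 with control siRNA and -0.09 with YAP/TAZ siRNA, and scaling each library by the median of its ratios to a common reference brought these to -0.03 and -0.004. It also moved the split of higher against lower calls from 1560 and 4654 to 2469 and 3101 under control siRNA and from 2347 and 3999 to 3055 and 2955 under YAP/TAZ siRNA, and quantile normalization gave 2337 and 3252 and 2729 and 2871. With each library at 1 total the split under YAP/TAZ siRNA was 1417 and 5794. Set against the median of all genes, Gpr37 changed by -1.28 and -0.87, Mgll by -0.39 and -0.44, Scrg1 by 0.51 and 0.47, S100b by 0.32 and 0.13, and Pik3r3 by -0.09 and -0.53, under control and YAP/TAZ siRNA in turn. With that scaling the Pik3r3 change under control siRNA was -0.09 and was not called (adjusted p = 0.444). Over 20 alternatives, its adjusted p ran from 0.0175 to 0.467. S100b under control siRNA was called higher with that scaling (0.32, adjusted p = 0.0168) and with quantile normalization, and its adjusted p ran from 0.00371 to 0.361. Under YAP/TAZ siRNA S100b was 0.15 with that scaling, -0.12 with each library at 1 total and -0.25 with quantile normalization, so no direction can be given.

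The difference between the 2 heat responses (YAP/TAZ siRNA minus control siRNA) is the difference of the values that chose the genes and was not tested. It was 0.48 ± 0.08 on the log2 scale for Gpr37, -0.36 ± 0.12 for Pik3r3, -0.11 ± 0.11 for S100b, 0.03 ± 0.14 for Mgll and 0.03 ± 0.16 for Scrg1. Because 1 FPKM was added to every value, changes of genes near that level in control cells, such as Mgll and Gpr37 after heat, are understated on this scale.

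**Figure D3:**
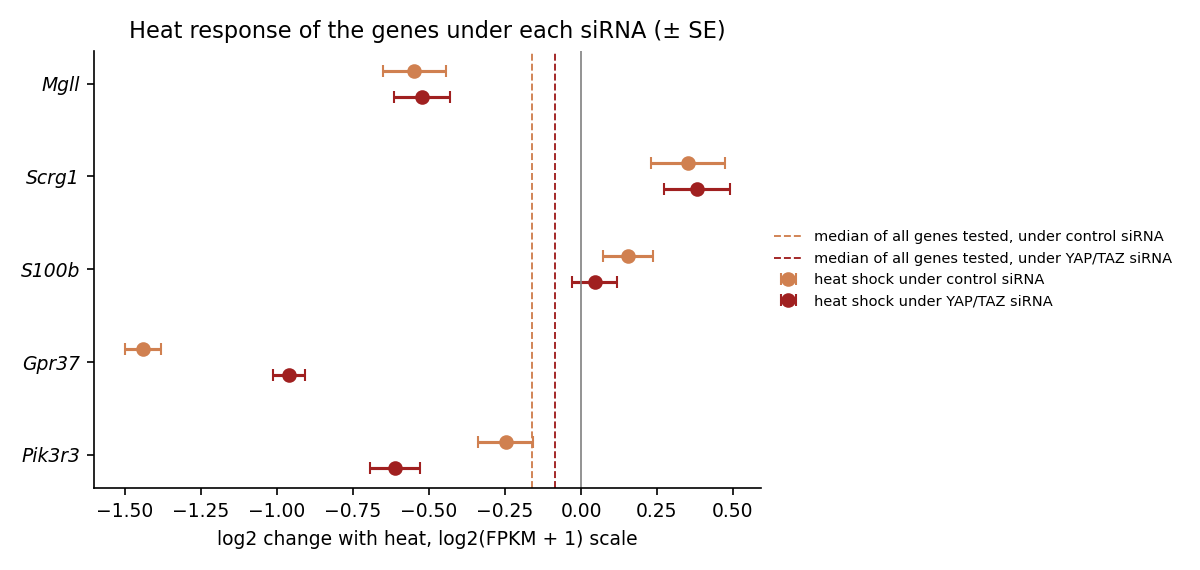
Log2 change with heat for each of the 5 genes under control siRNA (orange) and YAP/TAZ siRNA (red), on the log2(FPKM + 1) scale; bars are standard errors and dashed lines the median of all genes tested (-0.16 and -0.09). Gpr37 lies farthest left under both siRNAs (-1.44 and -0.96), and Scrg1 lies to the right of 0 (0.35 and 0.38).

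The genes whose log2 levels followed each of the 5 most closely over the 11 libraries were read off by Pearson's r, as a description without a p. The libraries fall into 4 groups, so r mostly reflects the order and spacing of the group means. Closest to Mgll were Unc93b1 (r = 0.994), Fbln5, Optn and Enpep. Closest to Scrg1 were Os9 (r = 0.997), Anxa6, Fez1 and Phyh, and closest to S100b were Bace2 (r = 0.997), Gsn, Tcn2 and Camk1. Gpr37 was followed most closely by Ikbke (r = 0.999), an NF-kappaB pathway kinase, with Snn, Nfkbie, an inhibitor of NF-kappaB, and Cers4. Pik3r3 was followed by Sparcl1 (r = 0.995), Adam23, Optn and Atl1. Optn, an autophagy receptor, was at 10.5 to 11.2 FPKM in unheated control libraries, 9.56 and 10.1 in heated ones, 27.0 to 27.9 under YAP/TAZ siRNA without heat and 21.9 to 22.6 with it, and appeared beside both Mgll and Pik3r3. Among the 5 genes, S100b and Scrg1 were most alike (r = 0.993) and Gpr37 and Scrg1 least (r = 0.797).

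Glial and neural crest genes were then read, since S100b and Gpr37 are known from glia. Of 24 Schwann cell, oligodendrocyte and myelin genes, 8 passed the filter. Without heat 4 were higher under YAP/TAZ siRNA (3 with median-of-ratios scaling or quantile normalization) and 2 lower, and after heat 5 were higher (3 under each of 3 other scalings) and 1 lower. Their median log2 difference was 0.19 and 0.32, where all genes had 0.02 and 0.13. Of all genes tested, 27.1% were higher and 21.9% lower without heat, and 36.3% were higher and 17.9% lower after heat. Every list count below is to be set against those shares and medians. Fabp7, a lipid carrier of radial glia and Schwann cell precursors, was 10.6 to 13.9 FPKM in unheated control libraries and 6.45 and 8.36 FPKM in heated ones, and every YAP/TAZ siRNA library lay above them at 28.1 to 36.0 FPKM. It rose by a log2 difference of 1.39 ± 0.13 without heat (adjusted p = 2.0e-05) and 1.94 ± 0.14 after heat (adjusted p = 5.9e-06), and the myelin enzyme gene Cnp by 0.80 ± 0.06 and 0.97 ± 0.06. Cdh19, a cadherin of Schwann cell precursors, rose by 0.85 ± 0.07 and 0.41 ± 0.08. Cryab, a small heat shock protein of lens and glia, fell (-0.76 ± 0.07 and -1.47 ± 0.07).

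Myelin genes did not move together. Pmp22 and Mbp, myelin protein genes named after their values were seen, were at 4.77 to 7.97 FPKM and 0.776 to 1.19 FPKM over the 11 libraries. Pmp22 fell without heat (-0.41 ± 0.07, adjusted p = 9.9e-04) and rose after heat (0.24 ± 0.08, adjusted p = 0.0266), a call lost in 7 of 20 alternatives, among them 3 other scalings and the omission of heated control replicate 1 or 3 or heated YAP/TAZ siRNA replicate 3 (adjusted p up to 0.236). Mbp differed by 0.01 ± 0.10 and 0.02 ± 0.11. The neural crest receptor gene Ngfr reached at most 0.0811 FPKM. Of the 24 genes, 16 stayed under 1 FPKM in every library and 3 were at 0 in all. The summed level of the list was 152 to 158 FPKM in unheated control libraries, 295 to 310 in heated ones, 162 to 168 under YAP/TAZ siRNA without heat and 165 to 179 with it. In heated control libraries most of that sum was Cryab, with a mean of 258 FPKM. Of 8 astrocyte markers, 3 were tested, and Aldoc, an enzyme of glycolysis, rose in both comparisons (1.18 ± 0.06 and 1.27 ± 0.07). After heat Gja1, a gap junction gene, rose by 0.56 ± 0.09 (adjusted p = 5.9e-04) and Aldh1l1 by 0.25 ± 0.08 (adjusted p = 0.0227), so that 3 of 3 were higher (2 under each of 3 other scalings), against 1 of 3 without heat. The Aldh1l1 call was lost in 6 of 19 alternatives, among them the omission of heated control replicate 3 (0.14, adjusted p = 0.213) or heated YAP/TAZ siRNA replicate 1 (0.25, adjusted p = 0.0508). Their summed level was 9.41 to 10.0 FPKM in unheated control libraries, 5.78 to 6.19 in heated ones, 11.4 to 12.9 under YAP/TAZ siRNA without heat and 10.6 to 11.4 with it. Of 9 neuron markers only Tubb3, a tubulin also made by melanoma cells, was tested, and it rose by 0.97 ± 0.04 and 2.37 ± 0.05 on the log2 scale. The part that such genes play in the siRNA differences of the 5 was not tested.

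Of 26 neural crest transcription factors and receptors, 14 were tested. Without heat 7 were higher under YAP/TAZ siRNA and 2 lower, and after heat 5 were higher and 4 lower, with medians of 0.25 and -0.15. Among all genes 27.1% were higher and 21.9% lower without heat, with a median of 0.02. After heat 36.3% of all genes were higher and 17.9% lower, with a median of 0.13, so the 5 higher are not read as more than that share. Sox10, the factor that maintains both glial and melanocyte fate, was 115 to 122 FPKM in unheated control libraries and 64.8 and 68.5 FPKM in heated ones, against 159 to 167 and 123 to 133 FPKM under YAP/TAZ siRNA, with no overlap. It rose by a log2 difference of 0.46 ± 0.04 (adjusted p = 2.5e-05) and 0.92 ± 0.05 (adjusted p = 9.1e-07). Erbb3, the neuregulin receptor of Schwann cells and melanoblasts, rose by 1.35 ± 0.12 and 1.03 ± 0.13. Sox9 rose by 1.01 ± 0.11 without heat and fell by 1.19 on the log2 scale after heat. Tfap2a, an early neural crest factor, fell in both comparisons (-0.39 ± 0.07, adjusted p = 0.00154, and -0.94 ± 0.08, adjusted p = 1.5e-05). Snai1, a factor of epithelial-mesenchymal transition, was at 0 to 0.063 FPKM in unheated control libraries and 1.19 and 1.35 FPKM in heated ones. It differed by 0.0014 ± 0.06 without heat and by -0.83 ± 0.07 after heat. Only the heated control libraries brought it past the filter. Its difference after heat is therefore given without a test, although it is counted among the 4 lower.

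Pigmentation genes moved in part with them. Of 19 tested, 11 were higher and 4 lower without heat, and 14 were higher and 2 lower after heat, with medians of 0.36 and 0.46. Tyr, the rate-limiting enzyme of melanin synthesis, rose by 0.91 ± 0.06 and 0.98 ± 0.07 on the log2 scale, and Dct, another melanin enzyme, by 0.90 ± 0.04 and 0.36 ± 0.04. Tspan10 rose by 0.93 ± 0.08 and 1.54 ± 0.09. Tyrp1, a melanin enzyme named after its values were seen, fell in both comparisons (-0.72 ± 0.08, adjusted p = 5.9e-05, and -0.92 ± 0.09, adjusted p = 2.7e-05). It stood at 1659 to 1823 FPKM in unheated control libraries and 984 to 1084 FPKM in unheated YAP/TAZ siRNA libraries. Mitf, the master factor of the lineage, was 51.0 to 56.9 FPKM in unheated control libraries and 37.9 and 40.5 FPKM in heated ones, 77.3 to 84.7 FPKM in unheated YAP/TAZ siRNA libraries, and 18.2, 67.7 and 64.3 FPKM in heated ones. It passed the test in neither siRNA comparison (0.58 ± 0.40, adjusted p = 0.266, and 0.14 ± 0.45, adjusted p = 0.818). Without heated YAP/TAZ siRNA replicate 1, the library at 18.2 FPKM, it was higher in both (0.58, adjusted p = 1.03e-04, and 0.74, adjusted p = 1.08e-04), and the adjusted p ran up to 0.463 and 0.999 over all alternatives. For the 5 genes that library lay near the other heated ones (Gpr37 at 17.9 against 18.2 and 17.2 FPKM).

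The S100 family gave the nearest relatives of S100b. Of 16 family and receptor genes, 8 were tested, 6 were higher and 2 lower without heat, and 6 were higher and 2 not called after heat, with medians of 0.56 and 1.00. S100a1, the closest in sequence to S100b and known from muscle and melanocytes, was 22.2 to 30.4 FPKM in unheated control libraries, 32.7 and 38.8 in heated ones, 66.4 to 88.8 under YAP/TAZ siRNA without heat and 85.2 to 121 with it. It rose by 1.53 ± 0.17 without heat (adjusted p = 6.9e-05) and 1.47 ± 0.19 after heat (adjusted p = 1.7e-04). On the FPKM scale, S100b stood at 0.693 to 0.882 of the level of S100a1 in unheated control libraries and at 1.05 to 1.47 of it in unheated YAP/TAZ siRNA libraries. In heated libraries it stood at 0.5922 to 0.7183 with control siRNA and at 0.8925 to 1.149 with YAP/TAZ siRNA. S100b was chosen for its rise under the siRNA, so the shift of this ratio toward S100b is not read as a result. S100a4 (1.35 ± 0.17 and 2.31 ± 0.19), S100a13 (1.14 ± 0.15 and 1.35 ± 0.17), S100a6 (0.68 ± 0.18 and 1.15 ± 0.20) and S100a16 (0.43 ± 0.09 and 0.45 ± 0.10) also rose. In control libraries S100a4 lay at 0.165 to 0.714 FPKM and S100a16 at 0.862 to 1.24 FPKM. S100a4 passed the filter only through YAP/TAZ siRNA libraries, so its higher calls are not read as a result. S100a10, the partner of annexin, fell by 0.73 on the log2 scale without heat and differed by -0.11 ± 0.10 after heat (-0.24 and called lower with quantile normalization). S100a11 fell by 0.48 without heat, a call lost without unheated YAP/TAZ siRNA replicate 2 (-0.42, adjusted p = 0.0538), and rose by 0.85 ± 0.15 after heat.

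For Gpr37, the candidate ligand precursor prosaposin was abundant and rose. Psap was 246 to 264 FPKM in unheated control libraries and 281 and 292 FPKM in heated ones, against 415 to 422 and 393 to 397 FPKM under YAP/TAZ siRNA, a log2 difference of 0.70 ± 0.04 (adjusted p = 1.2e-06) and 0.46 ± 0.04 (adjusted p = 2.2e-05). Of the 9 tested genes among 12 of the Gpr37 family, prosaposin and the lysosomal hydrolases that need saposins, 4 were higher and 1 lower in each comparison, with medians of 0.31 and 0.32 (after heat 2 were lower under each of 3 other scalings). Arsa, arylsulfatase A, rose by 1.08 ± 0.06 and 1.06 ± 0.07. The paralogue Gpr37l1 reached at most 0.0602 FPKM and was not tested.

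For Mgll, 20 of 26 genes of monoacylglycerol and triglyceride turnover and endocannabinoids were tested. Without heat 9 were higher and 3 lower, and after heat 11 were higher and 3 lower, with medians of 0.17 and 0.31. The 2 other hydrolases of the same substrate rose: Abhd6 by 0.37 ± 0.07 and 0.59 ± 0.08, and Abhd12 by 0.83 ± 0.13 and 0.82 ± 0.14. Daglb, which makes the substrate, did not pass without heat (-0.07 ± 0.07, adjusted p = 0.425) and rose by 0.27 ± 0.07 after heat (adjusted p = 0.0116), a call lost with each library at 1 total (0.22, adjusted p = 0.0522) and without heated control replicate 3 (0.21, adjusted p = 0.102). With quantile normalization it was lower without heat (-0.18, adjusted p = 0.0435). Mogat1, which adds an acyl chain to monoacylglycerol, rose by 1.08 ± 0.12 and 1.05 ± 0.13, and Dgat1 and the lipid droplet protein gene Plin3 rose in both comparisons (0.57 ± 0.06 and 0.70 ± 0.07, 0.74 ± 0.05 and 1.03 ± 0.06). Dgat2 fell (-0.60 ± 0.08 and -0.70 ± 0.09).

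Around Pik3r3, 13 of 20 phosphoinositide kinase and phosphatase genes were tested, 6 higher and 7 not called without heat and 6 higher and 1 lower after heat, with medians of 0.20 and 0.43. The other class IA regulatory subunits differed by less than Pik3r3, which was chosen for its large difference, so this contrast is not read as a result. Pik3r1, the main class IA regulatory subunit, rose by 0.21 ± 0.08 without heat (adjusted p = 0.0441), a call lost in 13 of 19 alternatives (adjusted p up to 0.24), and differed by 0.11 ± 0.08 after heat. Pik3r2 differed by 0.06 ± 0.10 without heat and rose by 0.43 ± 0.12 after heat (adjusted p = 0.0118), a call lost with median-of-ratios scaling (0.30, adjusted p = 0.0596) and without heated control replicate 1 (0.41, adjusted p = 0.0703). Pik3ip1, an inhibitor of the kinase, rose (1.30 ± 0.13 and 0.64 ± 0.14), as did Pik3c3, the catalytic subunit of the class III enzyme (0.45 ± 0.07 and 0.87 ± 0.07). Pik3ip1 lay at 0.347 to 0.633 FPKM in control libraries. It passed the filter only through YAP/TAZ siRNA libraries, so its higher calls are not read as a result. Of 18 insulin receptor, adaptor and AKT-FOXO genes tested, 5 were higher and 3 lower without heat and 3 were higher and 6 lower after heat, and the adaptor gene Irs2 fell by 1.71 on the log2 scale after heat.

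Around Scrg1, of 18 cartilage genes only 4 were tested, with 2 higher and 2 lower in each comparison. Col9a2 rose by 1.12 ± 0.07 and 0.74 ± 0.08 and Col11a2 by 0.94 ± 0.07 and 0.35 ± 0.08, both from under 1 FPKM in control libraries. Col9a2 and Col11a2 passed the filter only through YAP/TAZ siRNA libraries, so these 2 higher calls are not read as a result. Hapln1 and Matn2 fell in both comparisons. The Hapln1 call after heat (-0.33 ± 0.09) was lost without heated control replicate 1 (-0.35, adjusted p = 0.0547) or 3 (-0.30, adjusted p = 0.084). Bst1, the reported receptor of the Scrg1 protein, reached at most 0.0161 FPKM. Of 17 tested genes that YAP and TAZ are known to activate, 8 were lower and 3 higher in each comparison (after heat 9 or 10 lower and 1 or 2 higher under 3 other scalings), and the log2 differences were -2.56 and -3.69 for Ccn1 and -1.85 and -3.35 for Ccn2.

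**Figure D4:**
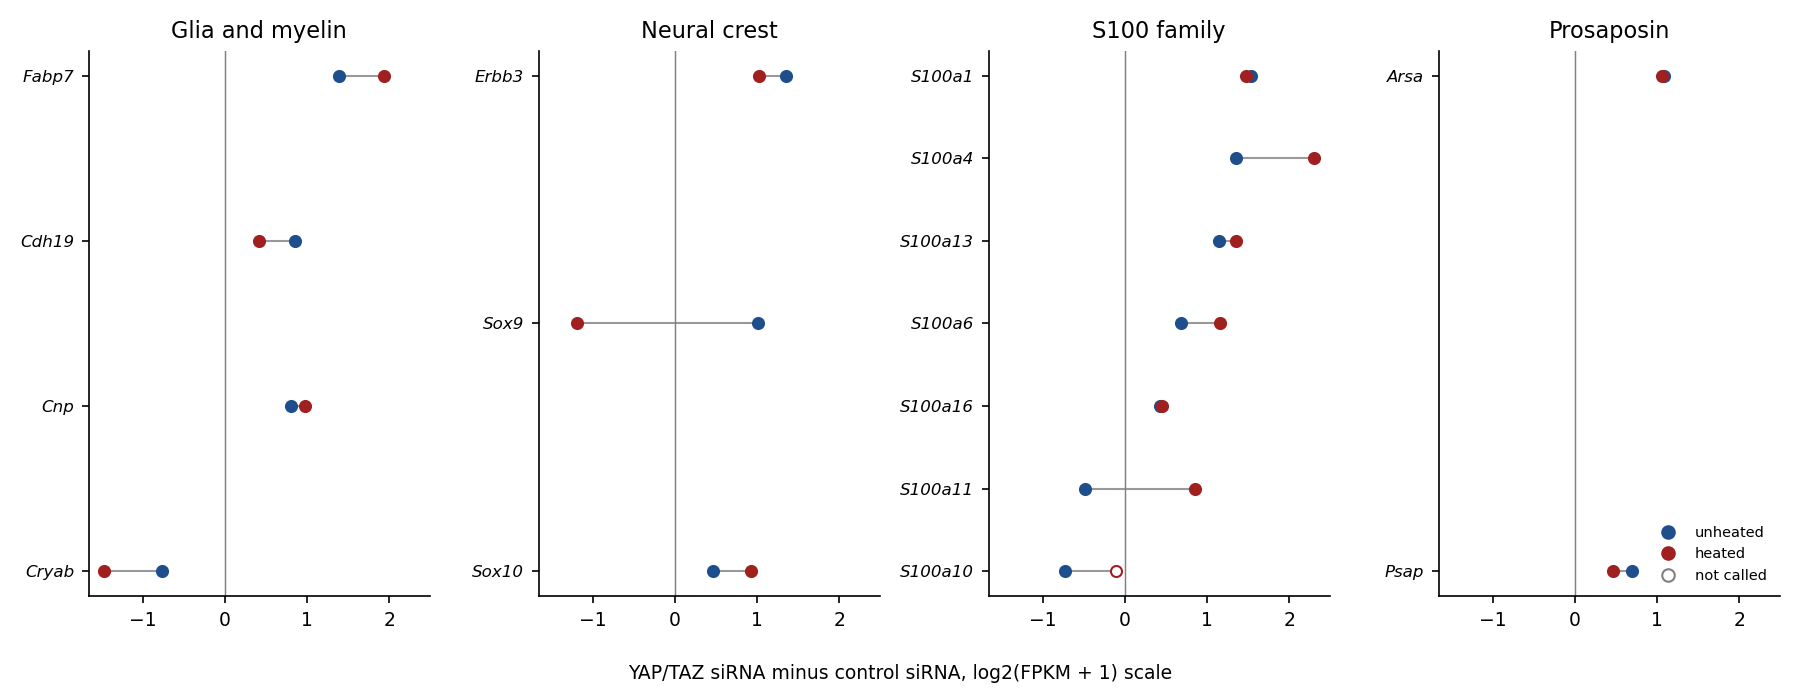
Log2 difference between YAP/TAZ and control siRNA without heat (blue) and after heat (red) for tested genes of 4 lists. Of the tested genes in these lists that the text names, Pmp22, Mbp, Tfap2a and Snai1 are not drawn. Filled points passed an adjusted p of 0.05 and open points did not. Fabp7, S100a1 and Arsa lie to the right of 0 by more than 1 in both comparisons, and Cryab to the left in both.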

How the data were processed

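RNA from 11 libraries was measured by sequencing. Values are FPKM per gene in 1 table deposited by the authors, who per the submitters' processing notes used Trimmomatic 0.36, HISAT2, SAMtools, StringTie and DESeq2 with build GRCm38; the sources used here do not give annotation release, strandedness or settings. FPKM are not counts, so no count test was run.

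Of 54686 entries, 54104 had Ensembl identifiers, 54038 of these matched a symbol in GENCODE M21, and 582 were assembled loci. The 12626 genes that reached 1 FPKM in 2 or more libraries were fitted as log2(FPKM + 1) with limma 3.58.1 (R 4.3.3), a mean per group over all 11 libraries, 7 residual degrees of freedom, a trended prior and Benjamini-Hochberg adjustment over all genes, with a threshold of 0.05. A fold change on this scale understates that of low genes. The fit was also tested on simulated data, and the outcome is not given here. Python 3.11.15, pandas 2.3.3, numpy 2.4.6 and matplotlib 3.10.9 did the rest. Alternatives changed the pseudocount, filter, scaling, trend, replicate block, groups fitted, and each library in turn.

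The members and lists were chosen with earlier results of these data known. Named are the 5 genes, the targeted genes, the 4 genes most correlated with each member, up to 4 genes of each list by smallest p in each siRNA comparison, and fixed relatives; Tyrp1, Pmp22 and Mbp were named after their values were seen. Some genes of the lists are not reported here and enter no list count.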

Additional observations from a re-analysis of the deposited data

Results flagged for a closer look

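In 8 genes of the lists, heat moved the level in opposite directions under the 2 siRNAs, and the difference between the responses (YAP/TAZ siRNA minus control siRNA, log2, tested in the same limma fit with Benjamini-Hochberg adjustment over all genes) passed the threshold. These are 8 of 68 list genes examined (11.8%), and 730 of 12626 genes tested (5.78%) met the same conditions; the difference alone passed in 42 of the 68 and in 37.9% of all genes. The list genes were mostly picked by small p in the siRNA comparisons, so the shares are not compared. All 8 differences rest on 2 heated control libraries. Sox9, a neural crest and cartilage factor, changed by 1.37 with control siRNA and -0.83 with YAP/TAZ siRNA, a difference of -2.195 ± 0.17 (adjusted p = 2.95e-05). Its level was low, 0.617 to 0.880 FPKM in unheated control libraries, 3.91 and 3.33 FPKM in heated ones and at most 2.64 FPKM under YAP/TAZ siRNA. Foxo3, a target of AKT, changed by 0.78 and -0.78, a difference of -1.561 ± 0.14 (adjusted p = 6.76e-05). For Ccn2, a TEAD target, the changes were 1.27 and -0.23 and the difference -1.498 ± 0.11 (adjusted p = 2.69e-05), but the fall under YAP/TAZ siRNA missed the threshold in 8 of 20 alternatives (adjusted p 0.0108 to 0.1). Under YAP/TAZ siRNA Ccn2 lay at only 0.268 to 0.409 FPKM without heat and 0.0865 to 0.257 FPKM after heat. The insulin receptor adaptor gene Irs2 changed by 0.93 and -0.53, a difference of -1.461 ± 0.13 (adjusted p = 5.44e-05), and the adaptor gene Gab1 by 0.63 and -0.51, a difference of -1.137 ± 0.08 (adjusted p = 1.96e-05). Tgfb2 changed by 0.32 and -0.45, a difference of -0.771 ± 0.14 (adjusted p = 0.00263), and Col11a2, at most 1.44 FPKM in any library, by 0.36 and -0.23, a difference of -0.5887 ± 0.11 (adjusted p = 0.00258). The Tgfb2 rise under control siRNA missed the threshold in 5 of 19 alternatives (adjusted p 0.00798 to 0.203) and the Col11a2 fall under YAP/TAZ siRNA in 8 of 19 (0.00474 to 0.316). Tubb3 went the other way, -1.19 and 0.21, a difference of 1.40 ± 0.06 (adjusted p = 2.79e-06), but with quantile normalization its change under YAP/TAZ siRNA was -0.19, and at 1 total 0.04 (adjusted p = 0.398). No group held the 4 libraries needed to look for single outlying values.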

How the results depend on the processing

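The Mgll and Gpr37 heat calls under both siRNAs, and that of Pik3r3 under YAP/TAZ siRNA, held under all 20 alternatives. For the changes that follow the cause was not tested, except that other filters change how many genes are tested. Without a filter, 4117 genes were higher with heat in control siRNA cells and 4407 lower under YAP/TAZ siRNA after heat, and at 5 FPKM 892 and 1449; that filter left 2546 lower with heat under YAP/TAZ siRNA and 2171 higher under that siRNA without heat. Median-of-ratios scaling gave 2469 higher and 3101 lower for heat with control siRNA, and 1 total gave 1417 higher in YAP/TAZ siRNA cells. Over single omitted libraries the number higher with heat in control siRNA cells ran from 874 (without heated control replicate 1; 986 without replicate 3) to 1611 and the count of lower genes under YAP/TAZ siRNA after heat from 1429 (without heated control replicate 1) to 2329.

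Scrg1 with heat under control siRNA was 0.35 with adjusted p = 0.0662 without a filter and 0.0951 with only the 2 groups (0.217 to 0.486 over omitted libraries). Under YAP/TAZ siRNA it was 0.22 (adjusted p = 0.0728) at 1 total and 0.27 (0.0558) with quantile normalization (0.318 to 0.433). Pik3r3 under control siRNA was -0.25 without a filter (0.0783) or trend (0.0572), -0.086 (0.444) by median-of-ratios scaling, -0.12 (0.467) after quantile normalization, and -0.329 to -0.167 over omitted libraries. S100b under control siRNA was 0.32 (0.0168) and 0.30 (0.00371) with those 2 scalings; under YAP/TAZ siRNA it was -0.12 at 1 total, -0.25 with quantile normalization and -0.0106 to 0.122 over omitted libraries. Tubb3 with heat under YAP/TAZ siRNA was -0.19 with quantile normalization, against 0.21.

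The siRNA differences of the chosen genes kept their direction throughout. The genes were chosen for large values of these differences, so the kept direction is not read as a result. Without heat, a pseudocount of 0.1 FPKM gave 3.08 for Mgll, 2.89 for Scrg1 and 2.14 for Gpr37; median-of-ratios scaling gave 1.95 for Gpr37, and quantile normalization 2.425 for S100b, 2.11 for Gpr37 and 2.51 for Pik3r3. After heat, that pseudocount gave 3.32 for Mgll, 2.87 for Scrg1 and 2.90 for Gpr37. In the same comparison 1 total gave 2.646 for Mgll, 2.02 for S100b and 2.42 for Gpr37, and median-of-ratios scaling 2.648, 1.97 and 2.41. Quantile normalization gave 2.495 for Scrg1, 1.88 for S100b, 2.385 for Gpr37 and 1.68 for Pik3r3. The difference between heat responses was 0.24 for Mgll and 0.75 for Gpr37 with that pseudocount, -0.20 for S100b and 0.39 for Gpr37 at 1 total, and -0.27 for Scrg1, -0.54 for S100b, 0.28 for Gpr37 and -0.83 for Pik3r3 with quantile normalization.

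Whether replicate numbers pair the libraries is not settled here. Deviations of 15 same-numbered pairs correlated at -0.110 to 0.134 over all genes, with 3 over 0.1. Those of 30 other pairs correlated at -0.180 to 0.155, with 2 over 0.1. In every group replicate 3 held the highest Scrg1 value. With the replicate block, 1660 genes rose and 4803 fell with heat in control siRNA cells, 2452 and 4143 in YAP/TAZ siRNA cells, and no call of the 5 genes changed.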
